A study of Mus musculus with 10 samples.

Results

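The genes described here write, or help to write, ubiquitin on histones H2A and H2B: Rnf8, Rnf168, Phf7, Rnf20, Rnf40, Ube2a, Ube2b, Ring1, Rnf2 and Huwe1. They were chosen by symbol, as genes of the family, with earlier results of these data known, and all 10 were found among the 15507 genes listed and among the 15389 genes tested. Germ cells were dispersed from the testes of 5 wild-type (WT) mice and 5 mice homozygous for a knock-in (KI) of GRTH, a testicular RNA helicase encoded in the mouse by Ddx25, and the poly(A) RNA of each mouse gave 1 library. Both genotypes were 45 days of age, the strain background was not given in the sources used here, and the KI allele carries the human gene with an arginine-to-histidine missense mutation that abolishes the phosphorylated form of the protein. The knock-in is present in every cell of the animal, and each preparation mixed spermatogonia, spermatocytes and spermatids. A lower or higher level in such a mixture can come from a changed share of a cell type or from a changed amount of RNA per cell, and these cannot be told apart.

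Ubiquitin reaches a histone through an E2 conjugating enzyme and an E3 ligase, and deubiquitinases remove it again. Ubiquitin on H2A is placed by the Polycomb complex PRC1 at repressed genes, and by RNF8 and RNF168 at DNA breaks and on the silenced sex chromosomes of meiotic cells. Ubiquitin on H2B is placed by the RNF20-RNF40 ligase with the E2 enzymes UBE2A and UBE2B along transcribed genes. In elongating spermatids, ubiquitination and acetylation of histones accompany the replacement of histones by transition proteins and then protamines.

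The E2 genes are the nearest relatives in the group, and the first 90 coding bases of each, from GENCODE vM21 transcripts Ube2a-201 and Ube2b-201, are shown because they tell how well reads of the pair can be told apart. Capitals mark the 25 bases at which they differ.
Ube2a: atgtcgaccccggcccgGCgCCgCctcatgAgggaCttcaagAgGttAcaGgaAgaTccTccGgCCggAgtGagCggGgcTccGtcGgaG
Ube2b: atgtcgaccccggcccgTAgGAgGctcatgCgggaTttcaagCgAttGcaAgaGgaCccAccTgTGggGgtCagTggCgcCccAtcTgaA
Over the whole coding sequence of 456 bases, Ube2a and Ube2b were identical at 77.63% of positions, with a longest identical run of 17 bases. Coding identity was 62.61% between Rnf20 and Rnf40 and 54.79% between Ring1 and Rnf2, with longest identical runs of 18 and 14 bases. No 50-base stretch of the annotated transcripts of Ube2a, Ube2b, Rnf20 or Ring1 occurred in another gene. The share of such stretches that did was 14.5% for Rnf8, the largest part in the gene Gm28043, and 10.8% for Rnf40. It was 2.63% for Rnf168, 2.59% for Rnf2, 0.597% for Huwe1 and 0.591% for Phf7.

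The study also measured Rnf8 by PCR with a primer pair that is shown for its place in the gene. The PCR values were not analysed here.
Rnf8 forward primer: ggatgaaacggaaagtagagtgtc
Rnf8 reverse primer: catgacagtctctttgctctccgttc
On GRCm38 the forward primer lies at chr17:29635870-29635893, in exon 7 of the 8 exons of Rnf8-201. The reverse primer is the complement of bases 29636013 to 29641231 joined across exons 7 and 8. The product of 169 bases is contained in 5 of the 12 Rnf8 transcripts of GENCODE vM21. The sequencing counts are for the whole interval of the deposited annotation, which ends at base 29641665, whereas the gene ends at 29644991 in GENCODE.

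Values are normalized counts, read counts per gene divided by a size factor for each library. The WT libraries held 13323024 to 16422347 recovered reads each and the KI libraries 12722086 to 15500582, and the 10 genes had 174 to 67951 reads in each library. Libraries 1 to 3 of both genotypes differ from libraries 4 and 5 in mean read quality and are called here the lower and the higher quality group. Ddx25 had a mean of 8231 normalized counts in WT. In KI it was at 146, 194 and 161 in libraries 1 to 3 and at 2.88 and 1.84 in libraries 4 and 5. The KI allele carries the human gene, and whether its reads were counted as Ddx25 was not tested, nor was the cause of the split. All 9 markers of elongating spermatids were down-regulated in KI, with a summed level of 236040 to 422400 in WT and 35279 to 68823 in KI. None of 7 spermatocyte markers, 6 round spermatid markers or 7 spermatogonial markers tested passed that call, although the summed level of the round spermatid markers was 19328 to 20884 in WT and 12065 to 18151 in KI, without overlap. By contrast, 3 of 7 Leydig cell markers (summed level 10291 to 18066 in WT and 14779 to 25692 in KI) and 5 of 9 macrophage markers (825 to 1017 and 1165 to 1601) were up-regulated. None of 7 Sertoli cell markers passed the call, and of 5 peritubular myoid markers tested 2 were up-regulated and 1 down-regulated. The spermatogonial marker Nanos3 was not among the genes listed, and at least 1 library held reads of every marker that was. The part of these cell types in the results below was not tested.

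None of the 10 genes was differentially expressed between KI and WT by limma, where a call needed both a change of 1.5-fold or more and an adjusted p under 0.05. That call was made for 14.4% of all genes tested (6.13% up-regulated and 8.22% down-regulated), so that a count of 0 among 10 genes lies near the background. edgeR and DESeq2 also called 0 of the 10. At an unadjusted p under 0.05, 2 of the 10 passed, Rnf168 and Rnf2, both higher in KI, against 34.6% of all genes. At an adjusted p under 0.05 without the fold threshold, 1 of the 10 passed, Rnf168, against 22.9% of all genes (9.65% higher and 13.3% lower in KI). The 95% interval of the fold change lay inside 1.5-fold in either direction for all 10 genes, as it did for 54.0% of all genes tested. The count of 10 fell to 5 with scaling to library totals, where the intervals of Rnf8, Rnf168, Rnf40, Ring1 and Rnf2 reached past 1.5-fold. It was 9 with upper-quartile scaling and 7 in the higher quality group alone. It was also 9, with Rnf2 outside, without WT library 1, 2 or 3 or KI library 2, 3, 4 or 5. The median log2 fold change was 0.10 over the 10 genes and 0.03 over all genes, with 6 values above 0 and 4 below.

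**Figure D1:**
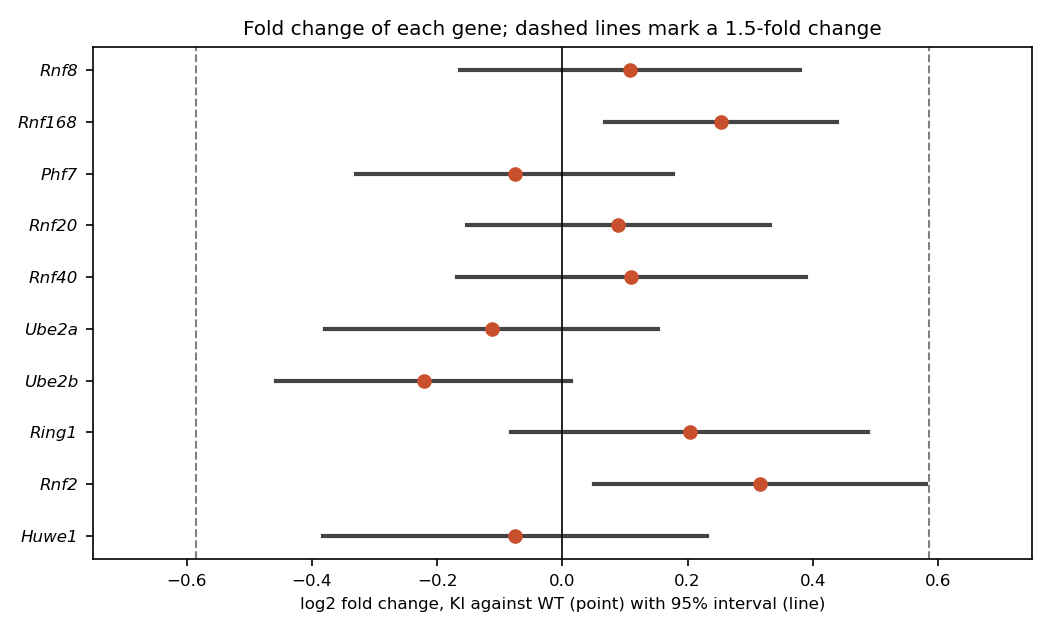
Log2 fold change of each of the 10 genes, KI against WT (horizontal axis, point), with its 95% interval (line) and dashed lines at a 1.5-fold change in either direction. Every interval lies between the dashed lines, and those of Rnf168 and Rnf2 lie above 0.

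Rnf8 and Rnf168 encode the ligases that act in sequence at DNA breaks, RNF8 being recruited through phosphorylated MDC1 and RNF168 extending the ubiquitin signal on H2A. Rnf8 (chr17:29614789-29641665, plus strand, mm10) was at 271, 201, 266, 200 and 203 normalized counts in WT libraries 1 to 5 and at 276, 259, 253, 226 and 209 in KI. The genotypes overlapped, and the higher quality group held the lower values of KI. The means were 228 ± 36.7 in WT and 245 ± 26.9 in KI (SD, n = 5 each), and the log2 fold change was 0.11 (SE 0.13, 95% interval −0.16 to 0.38, limma adjusted p = 0.603). On the linear scale the interval ran from 0.893-fold to 1.30-fold. The difference was 0.11 in both quality groups. The listed gene Gm28043 is a read-through on the same strand that starts with Rnf8 and runs into Cmtr1, and its WT mean was 53.5 normalized counts. With Gm28043 added to Rnf8 the log2 fold change was 0.16 (adjusted p = 0.331).

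Rnf168 (chr16:32277461-32301440, plus strand) was at 592, 615, 594, 667 and 683 normalized counts in WT and at 730, 723, 696, 804 and 806 in KI. Every KI library lay above every WT library. Rnf168 was the only one of the 10 genes without overlap, against 17.7% of all genes tested. The means were 630 ± 42.3 and 752 ± 50.2 (SD, n = 5 each), and the log2 fold change was 0.25 (SE 0.09, 95% interval 0.07 to 0.44), or 1.19-fold. The limma adjusted p was 0.0473, close to the threshold. It was under 0.05 in 12 of 23 alternatives (range 8.72e-04 to 0.303), and without any 1 library other than WT 4 or WT 5 it rose above the threshold, up to 0.106. The difference was 0.25 in both quality groups, and over the 23 alternatives it ranged from 0.23 to 0.48, with 0.48 under library totals and 0.35 under upper-quartile scaling.

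Phf7 encodes a PHD finger protein of the male germline that reads methylated histone H3 and acts as a ligase for H2A in spermatids. Phf7 (chr14:31237689-31251316, minus strand) was at 52519, 58765, 58476, 60033 and 46843 normalized counts in WT and at 51541, 59055, 52748, 52743 and 46059 in KI. The ranges overlapped almost throughout, and library 5 was the lowest in both genotypes. The means were 55327 ± 5562 and 52429 ± 4622 (SD, n = 5 each), and the log2 fold change was −0.08 (SE 0.12, 95% interval −0.33 to 0.18, limma adjusted p = 0.701). Phf7 is known to be used in round spermatids. Of the 6 markers of that stage, 2 were lower in KI at a limma adjusted p under 0.05, against 13.3% of all genes tested, and 0 reached the fold threshold. The genotypes did not overlap for 3 of the 6, against 17.7% of all genes tested. The relation of these markers to Phf7 was not tested.

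Rnf20 and Rnf40 encode the subunits of the H2B ligase. Rnf20 (chr4:49632060-49656887, plus strand) was at 495, 451, 459, 350 and 408 normalized counts in WT and at 505, 469, 489, 383 and 449 in KI. The genotypes overlapped, with library 4 the lowest in both, although KI was the higher in all 5 pairs of libraries with the same number. The log2 fold change was 0.09 (SE 0.11, 95% interval −0.15 to 0.33, limma adjusted p = 0.630). Rnf40 (chr7:127588698-127603606, plus strand) was at 3377, 3728, 3655, 3847 and 4304 normalized counts in WT and at 3268, 3860, 3418, 5078 and 5099 in KI. KI libraries 4 and 5 stood above all WT libraries, whereas KI libraries 2 and 3 lay among them and KI library 1 lay below them. The means were 3782 ± 339 and 4145 ± 889 (SD, n = 5 each), and the log2 fold change was 0.11 (SE 0.13, 95% interval −0.17 to 0.39, limma adjusted p = 0.603). The difference was −0.03 in the lower and 0.32 in the higher quality group, and the term for the difference between these was 0.35 (limma adjusted p = 0.225). In GENCODE vM21 the antisense gene 1700120K04Rik overlaps the end of Rnf40, and without strand information reads of such a pair cannot be told apart. In the deposited annotation the antisense gene 1700120K04Rik lies outside the interval of Rnf40, and its mean was 448 normalized counts in WT and 216 in KI.

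Ube2a and Ube2b encode the E2 enzymes that serve the RNF20-RNF40 ligase, the first from the X chromosome and the second from an autosome. Loss of Ube2b is known to make male mice infertile. Ube2b (chr11:51985138-52000787, minus strand) was at 1921, 1833, 1754, 1603 and 1383 normalized counts in WT and at 1690, 1508, 1492, 1371 and 1217 in KI. The genotypes overlapped as a whole, but in each pair of libraries with the same number the KI library was the lower. The means were 1698 ± 212 and 1456 ± 175 (SD, n = 5 each), and the log2 fold change was −0.22 (SE 0.11, 95% interval −0.46 to 0.01, limma adjusted p = 0.170). With the library number as a block the adjusted p was 0.0204, and it was 0.0343 with a term for the quality group. It was under 0.05 in 3 of 23 alternatives. The highest was 0.957, with scaling to library totals, where the log2 fold change was 0.00793. Ube2a (chrX:36874295-36884221, plus strand) was at 230, 212, 228, 223 and 197 normalized counts in WT and at 200, 213, 256, 184 and 164 in KI. KI held both the highest and the lowest library. The log2 fold change was −0.11 (SE 0.12, 95% interval −0.38 to 0.15, limma adjusted p = 0.574).

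Ring1 and Rnf2 encode RING1A and RING1B, the alternative catalytic subunits of PRC1. Rnf2 (chr1:151469398-151500992, minus strand) was at 919, 801, 825, 708 and 636 normalized counts in WT and at 1195, 978, 1018, 874 and 787 in KI. As for Ube2b, the genotypes overlapped as a whole and separated within each quality group, here with KI the higher. The means were 778 ± 109 and 970 ± 155 (SD, n = 5 each), and the log2 fold change was 0.32 (SE 0.12, 95% interval 0.05 to 0.58), or 1.24-fold. The limma adjusted p was 0.0829, and it was under 0.05 in 6 of 23 alternatives (range 0.00335 to 0.230). With the library number as a block it was 0.00335, and with a term for the quality group 0.00682. When each library was left out it ran from 0.0293, without KI library 5, to 0.197, without KI library 1. Ring1 (chr17:34020792-34024681, minus strand) was at 287, 306, 337, 459 and 415 normalized counts in WT and at 353, 435, 389, 460 and 416 in KI. In libraries 1 to 3 every KI value lay above every WT value, and in libraries 4 and 5 the genotypes overlapped, with KI the higher by less than 1 count in each. The log2 fold change was 0.20 (SE 0.13, 95% interval −0.08 to 0.49, limma adjusted p = 0.309), with 0.34 in the lower and 0.00 in the higher quality group.

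Huwe1 encodes a large HECT ligase with many substrates, histones among them. Huwe1 (chrX:151803282-151935418, plus strand) was at 1739, 1495, 1517, 1511 and 2079 normalized counts in WT and at 1542, 1335, 1331, 1520 and 2291 in KI. Library 5 was the highest in both genotypes, and the rest overlapped. The log2 fold change was −0.07 (SE 0.14, 95% interval −0.38 to 0.23, limma adjusted p = 0.761), and without WT library 5 it was 0.01.

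**Figure D2:**
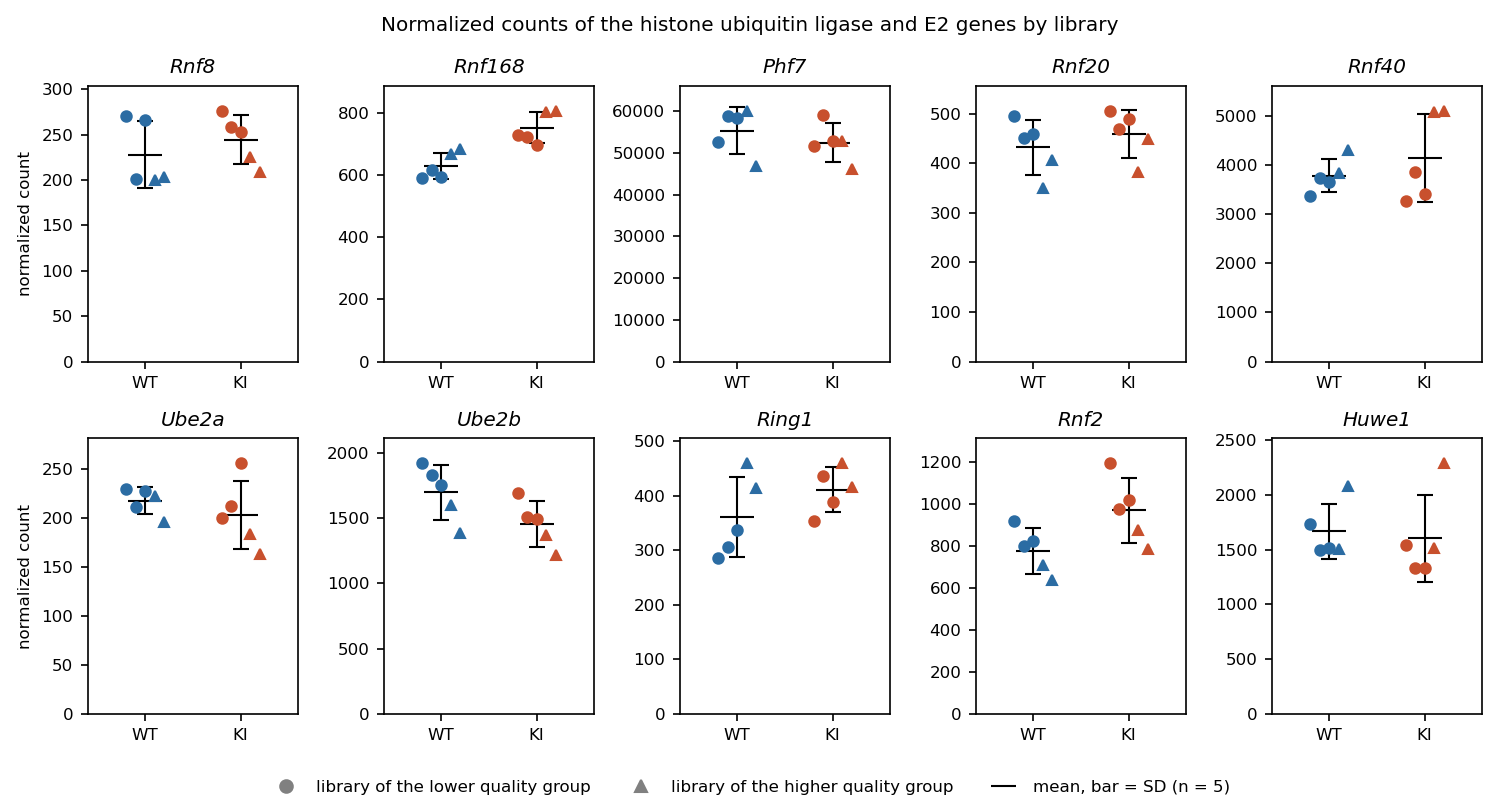
Normalized counts (vertical axes, from 0) of the 10 genes in each WT and KI library, with circles for the lower and triangles for the higher quality group, and the mean with its SD (n = 5). The genotypes are apart in the panel of Rnf168 alone, and in those of Rnf2 and Ube2b they are apart within each kind of symbol.

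Among the pairs of libraries with the same number, 5 of the 10 genes moved one way in all 5 pairs, against 37.9% of all genes tested. Rnf168, Rnf20, Ring1 and Rnf2 were the higher in KI in every pair, and Ube2b was the lower. Rnf168, Rnf2 and Ube2b separated by genotype in the same direction within both quality groups, 3 of 10 genes against 25.8% of all genes tested. With the library number as a block, the same 3 genes passed an adjusted p under 0.05, against 32.0% of all genes. No label says that libraries of the same number belong together. Between the quality groups, with genotype as a term, 5 of the 10 genes differed at a limma adjusted p under 0.05, against 21.5% of all genes. Rnf40 and Ring1 were higher in the higher quality group, by 0.36 and 0.33 on the log2 scale. Rnf2, Ube2b and Rnf20 were lower there, by −0.34, −0.29 and −0.27. No gene of the 10 had an interaction of genotype and quality group at an adjusted p under 0.05, against 0.247% of all genes, and 1, Rnf40, had one at an unadjusted p under 0.05, against 16.1% of all genes.

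Levels of different genes were compared per kilobase of the longest protein-coding transcript in GENCODE vM21, whereas the counts came from the deposited annotation. Rnf8 ends at base 29644991 in GENCODE and at 29641665 in the deposited annotation, and Rnf2 and Rnf40 also reach further in GENCODE. Where a transcript runs past the counted interval, its level per kb is understated. The size of this effect was not tested, so the last place of Rnf8 in the order below is not fixed. In WT the order was Phf7 (26549 normalized counts per kb), Ube2b (948), Rnf40 (716), Rnf2 (243), Ring1 (177), Rnf168 (141), Ube2a (126), Huwe1 (114), Rnf20 (100.3) and Rnf8 (42.2), and the order was the same in KI. Phf7 ranked 12 among 14182 tested genes with a transcript length. The WT libraries of neighbours in this order did not overlap between Phf7 and Ube2b, between Rnf40 and Rnf2, or between Rnf20 and Rnf8. All other neighbours overlapped, so that the order from Rnf2 to Rnf20 is not fixed step by step. The ligase subunits of one complex thus differed in level, Rnf40 above Rnf20, and of the E2 pair the autosomal Ube2b was above the X-linked Ube2a.

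**Figure D3:**
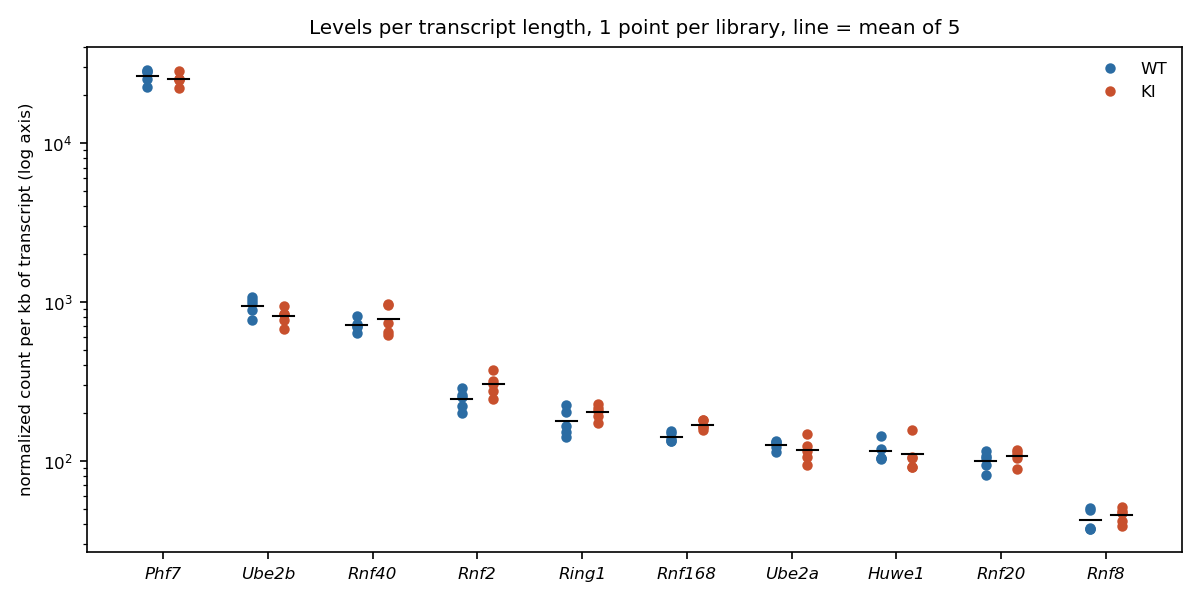
Normalized counts per kb of transcript (vertical axis, log scale) of the 10 genes in each library, in the order of their WT means, with WT in blue, KI in orange and a line at each mean of 5. Phf7 stands far above the others in both genotypes. Rnf8 is the lowest by the transcript lengths used, which for Rnf8 may exceed the counted interval.

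Ratios of partner genes within a library remove the scaling of that library. The ratio of Ube2b to Ube2a was 7.75 ± 0.706 in WT and 7.22 ± 0.941 in KI, a log2 difference of −0.11 (SD, n = 5 each, exact two-sided permutation test, p = 0.373). Rnf40 to Rnf20 was 8.90 ± 1.78 and 9.24 ± 2.93, a difference of 0.02 (exact p = 0.889). Rnf2 to Ring1 was 2.27 ± 0.723 and 2.40 ± 0.619, a difference of 0.11 (exact p = 0.643). Rnf168 to Rnf8 was 2.83 ± 0.580 and 3.11 ± 0.547, a difference of 0.15 (exact p = 0.429). Adjusted over these 4 ratios the exact p-values were 0.857 to 0.889, and the smallest p that 5 against 5 libraries allow is 0.00794. The genotypes overlapped for all 4 ratios. That test does not use the library numbers. With the libraries paired by number, an exact test over the signs of the 5 differences gave p of 0.188 to 0.813 (adjusted 0.625 to 0.813), where the smallest p it allows is 0.0625, so that it could not reach 0.05.

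The same ratios separated the quality groups for 3 of the 4 pairs, with both genotypes pooled. Rnf40 to Rnf20 was 6.46 to 8.25 in the 6 libraries of the lower group and 10.5 to 13.2 in the 4 of the higher group. Rnf2 to Ring1 was 2.24 to 3.38 in the lower group and 1.53 to 1.90 in the higher group. Rnf168 to Rnf8 was 2.18 to 3.05 and 3.33 to 3.85. Only Ube2b to Ube2a overlapped, at 5.80 to 8.63 in the lower group, with all 4 libraries of the higher group inside that range. Within the lower group the genotypes overlapped for all 4 ratios. Within the higher group every ratio was higher in both KI libraries than in both WT libraries, and 2 against 2 libraries allow no p under 0.333.

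**Figure D4:**
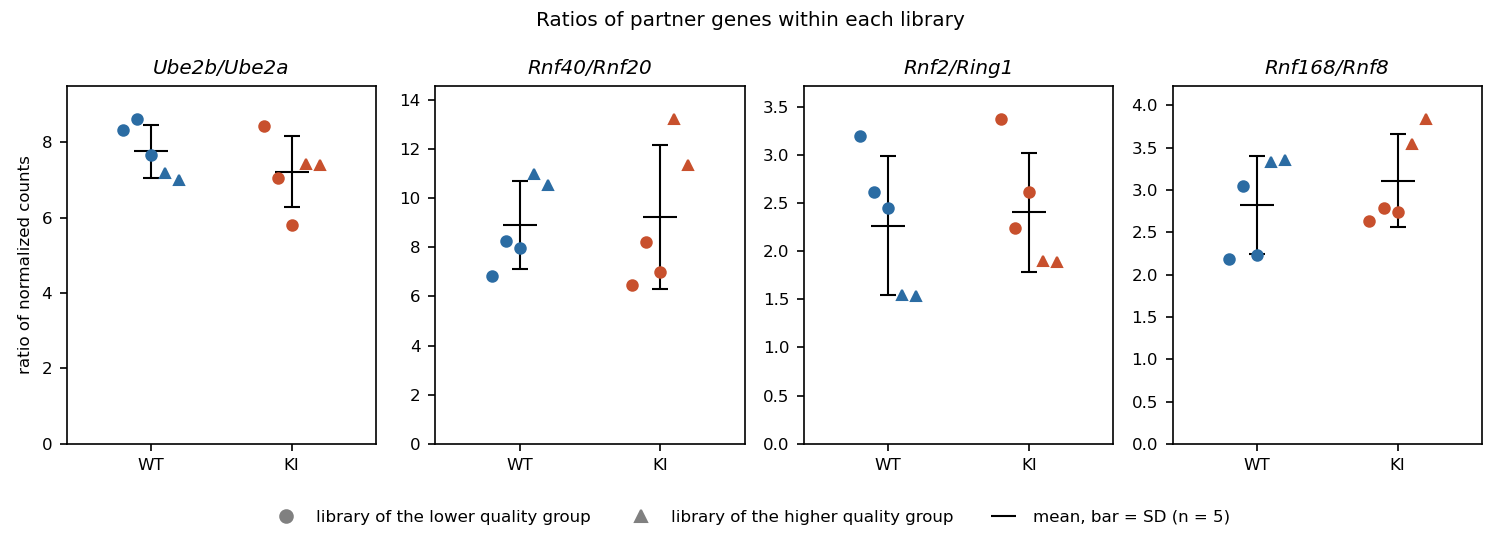
Ratio of the normalized counts of 4 pairs of partner genes (vertical axes, from 0) in each WT and KI library, with circles for the lower and triangles for the higher quality group and the mean with its SD (n = 5). WT and KI overlap in every panel, whereas circles and triangles are apart in all but Ube2b to Ube2a.

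Across the 10 libraries, the tested genes whose log2 values followed Rnf8 most closely were Mkln1os, Taf9b and Hbp1, each with Pearson's r = 0.96. All points share their library, its scaling and its quality group, and this is given as a description.

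The other genes of the pathway were taken from 6 lists of 98 tested genes in all. Of these, 4 were up-regulated and 11 down-regulated in KI, 15.3% against 14.4% of all genes, with a median log2 fold change of 0.04. Among 23 partner subunits of PRC1, 2 were up-regulated and 1 down-regulated. Bmi1, a core PRC1 subunit that binds RNF2, was at 2500, 2481, 2443, 1823 and 1897 normalized counts in WT and at 1250, 1101, 1123, 1118 and 949 in KI, without overlap. It fell from a mean of 2229 ± 338 to 1108 ± 107 (SD, n = 5 each, limma adjusted p = 1.45e-05), while the log2 fold change of its partner Rnf2 was 0.32. The chromobox gene Cbx6 rose by 0.74 and Bcor, of a variant PRC1, by 0.73, both from low levels of 113 and 46.9 normalized counts in WT. None of the 8 genes of the PAF1 complex and other H2B ubiquitination cofactors was called by limma, and 0 passed an unadjusted p under 0.05. edgeR and DESeq2 gave the same total of 4 up and 11 down over the 6 lists.

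Among 20 deubiquitinases of H2A and H2B and their cofactors, 2 were up-regulated and 2 down-regulated. Usp44, which removes ubiquitin from H2B, fell from a mean of 3880 ± 783 normalized counts in WT to 2042 ± 112 in KI (SD, n = 5 each), by −0.90 on the log2 scale. Usp12, which acts on both histones, fell from 1539 ± 409 to 856 ± 70.2, a change of −0.80. Asxl3, a cofactor of the H2A deubiquitinase BAP1, rose by 1.04 from 34.9 in WT, and Usp51, an H2A deubiquitinase, rose by 0.93 from 22.3.

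Among 20 partners of RNF8 and RNF168 in damage signalling, 1 was down-regulated, Ube2n, the E2 that builds ubiquitin chains with RNF8. Ube2n was at 3417, 3645, 3547, 2613 and 2396 normalized counts in WT and at 2133, 2039, 2024, 1896 and 1580 in KI, without overlap, and its log2 fold change was −0.68 (SE 0.13). Among 12 other ligases of H2A or H2B, 1 was down-regulated, Ubr7, an H2B ligase, which fell from 2139 ± 369 to 1207 ± 56.0 (SD, n = 5 each), a change of −0.81.

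Among 15 genes of histone removal in spermatids, 6 were down-regulated and none up-regulated. The transition protein gene Tnp2 and the protamine genes Prm1 and Prm2, whose products replace histones, changed by −2.27, −2.82 and −3.30, and the spermatid kinase gene Tssk6 by −3.02. Tnp1, Tnp2, Prm1 and Prm2 are also on the list of elongating spermatid markers, so that their fall is not a separate result. Ube2j1, an E2 of the endoplasmic reticulum that spermatids need, was at 7147, 8000, 8220, 5571 and 5850 normalized counts in WT and at 3200, 3291, 3282, 3423 and 2757 in KI. Its log2 fold change was −1.11 (SE 0.12, limma adjusted p = 8.15e-06), without overlap. The acetyltransferase gene Kat8 had a log2 fold change of −0.12 (adjusted p = 0.435), and Brdt, a bromodomain reader of acetylated histones, of −0.10 (adjusted p = 0.485). Psme4, the proteasome activator that degrades acetylated histones, had −0.29 (adjusted p = 0.143), with −0.53 in the lower and 0.07 in the higher quality group.

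**Figure D5:**
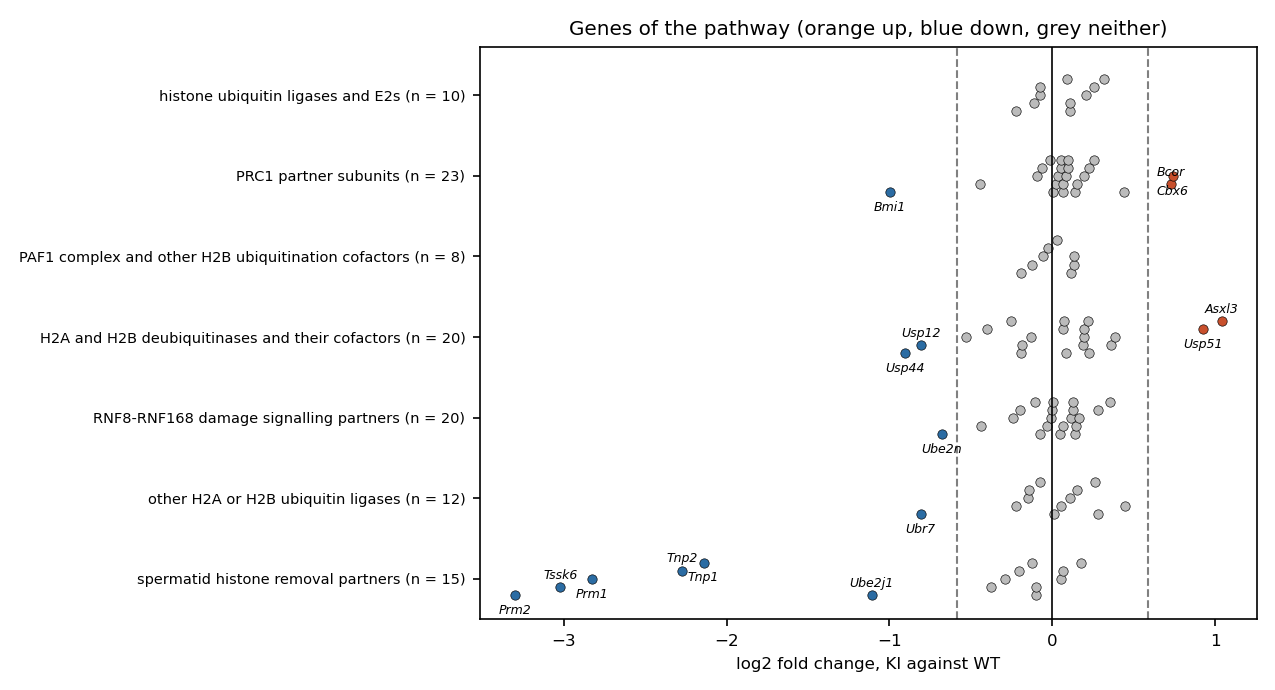
Log2 fold change, KI against WT (horizontal axis), of the 10 ligase and E2 genes (top line) and of the 98 other genes of the pathway in 6 lists, with 1 point per gene, up-regulated genes in orange, down-regulated genes in blue and dashed lines at a 1.5-fold change. The 10 genes all lie between the dashed lines. Bmi1, Usp44, Usp12, Ube2n, Ubr7 and 6 genes of histone removal lie to the left of them, and Cbx6, Bcor, Asxl3 and Usp51 to the right.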

How the data were processed

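The authors aligned paired-end reads with STAR (genome mm10). Genes of RefSeq release 91 were quantified by the E/M method of Partek, and the deposited signal is the count of each gene divided by the DESeq2 size factor of the library. Whether the counting used strand was not given in the sources used here. Reads were recovered by multiplying by the size factor, and 100% of results below 5000 reads came out whole (tolerance 0.05 reads).

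The planned test was chosen for such values: limma 3.58.1 (R 4.3.3) with a variance trend on log2(value + 1), KI against WT, on the genes passing filterByExpr of edgeR 4.0.16, with Benjamini-Hochberg adjustment over all 15389 genes. Fold changes on that scale understate those of low genes. Calls needed an adjusted p under 0.05 and a fold change of at least 1.5. edgeR (quasi-likelihood, TMM) and DESeq2 1.42.0 on recovered reads were alternatives, beside other scalings, filters, pseudocounts, the quality groups, a replicate block and leaving out each library. Ratios were compared by exact permutation over 252 arrangements. Quality groups were split at the largest gap in mean read quality among the libraries. The longest protein-coding transcript was used for lengths in place of the planned exon length, because retained introns lengthen Rnf8. Transcripts, coding sequences and shared stretches came from GENCODE vM21 (GRCm38), the build of the files.

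The members and lists were chosen with earlier results of these data known. Named are all 10 members, the called genes of each list (at most 4 per direction), Ube2j1, Kat8, Psme4, Brdt and Ddx25, and the 3 genes most like Rnf8. Same-numbered libraries of the 2 genotypes, after removing genotype means, correlated with r of 0.105 to 0.462. Other cross-genotype pairs of a quality group ran from 0.0113 to 0.287 (mean 0.134), so that the ranges overlapped. The main test did not use the library number, and it was treated as pairing the samples in the alternatives that name it. This hint of a pairing comes from the data and not from the labels. Between replicates the chi-square per degree of freedom was 2.66 to 46.6, so no library duplicated another. The libraries of a genotype came from separate mice. On simulated data for KI against WT (15389 genes, 100 changed per fold size), limma recovered 86 of the 2-fold and 99 of the 4-fold changes with 11 false calls. These were counted at an adjusted p under 0.05 without the fold threshold. Changes under 2-fold and a difference between quality groups were not simulated, so recovery of changes as small as those of the 10 genes is not known. The PCR, protein and histology experiments were not analysed here.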

Additional observations from a re-analysis of the deposited data

Results flagged for a closer look

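Huwe1 in KI library 5, at 2291 normalized counts, stood apart from the remaining libraries of its genotype, which were at 1331 to 1542: its gap to the nearest library was 0.779939 of the range of the group. This was 1 of 28 groups examined in this way, and chance alone sets apart about 1 in 20 groups. WT library 5, at 2079, was also the highest of its genotype.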

How the results depend on the processing

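None of the 10 genes was up-regulated or down-regulated under any alternative that kept the 1.5-fold threshold, and without it 1 was up-regulated. At an adjusted p under 0.05, the number of the 10 genes higher in KI was 1 as reported, 4 with library totals, 2 with upper-quartile scaling, 0 with TMM, 0 with edgeR, 2 with the replicate block, 2 with a term for the quality group, 3 in the lower and 0 in the higher quality group alone, and 0 to 1 when each library was left out. The number lower in KI was 0 as reported and 1 with the replicate block, 1 with the quality term and 1 in the lower group alone. The replicate block, for libraries paired by number, changed the side of the threshold for Rnf2 and Ube2b and for no other of the 10 genes. Library totals moved the median of all genes to a log2 fold change of 0.25 and upper-quartile scaling to 0.12, and calls over all genes went from 944 up and 1265 down to 2145 up and 789 down with library totals. Signs changed with library totals for Phf7 (0.15), Ube2a (0.12), Ube2b (0.00793), Huwe1 (0.15), Kat8 (0.11) and Brdt (0.13), and with the upper quartile for Phf7 (0.0179) and Huwe1 (0.0188). Relative to the median of all genes, those of Phf7, Ube2a, Ube2b and Huwe1 stayed below 0. Signs also changed in the lower quality group alone for Rnf40 (−0.0312), in the higher group alone for Huwe1 (0.0746), Psme4 (0.0669) and Brdt (0.0705), and without WT library 5 for Huwe1 (−0.211 to 0.00745 over all omissions of 1 library). The 4 up-regulated and 11 down-regulated pathway genes became 8 and 8 with library totals, 4 and 14 in the lower and 3 and 8 in the higher quality group alone, and the up-regulated became 1 with at least 100 reads in 5 libraries, and 3 to 4 (11 to 12 down) when each library was left out. Over the same omissions, the log2 difference ranged from −0.12 to 0.14 for Rnf40 to Rnf20, −0.0193 to 0.25 for Rnf2 to Ring1, −0.17 to −0.03 for Ube2b to Ube2a and 0.06 to 0.21 for Rnf168 to Rnf8. The causes were not tested. The paired test of the ratios and the count of intervals within 1.5-fold were added after seeing the data. Rnf8 and Ube2a had the fewest reads per library, from 174 and 178.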
